A study of Arabidopsis thaliana with 4 samples.

Results

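The genes described here are 6 jacalin-related lectin genes of Arabidopsis thaliana, JAL23 (AT2G39330), JAL33 (AT3G16450), JAL34 (AT3G16460), AT1G52000, AT1G52100 and AT1G33790. Each was measured by a probe set annotated to that gene alone, so the 6 genes correspond to 6 probe sets, among 13286 loci that had a probe set of their own. They were chosen from a comparison of add3 with wild type in these same arrays. Their differences between the groups are therefore given as a description, with no test.

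RNA came from the above-ground parts of seedlings at developmental stage 1.02, including hypocotyls, cotyledons, meristems, the first true leaves and leaf primordia. Seeds were stratified at 4 °C for 4 days on a peat mix, and all plants then grew in a chamber at 29 °C with 24 h of light per day. The mutant group, add3 (ARRESTED DEVELOPMENT 3), was an EMS-induced line in the Col-3 gl1 background, in which the gl1 mutation removes leaf hairs. The control group was Col-0 wild type, so the add3 mutation and the background cannot be told apart. Each group had 2 samples on 1 Affymetrix ATH1 array each. The labels do not say that replicates were planted separately. The p-values therefore reflect the spread of these 4 samples alone, which could be technical. The labels do not name the mutated locus, and no targeted transcript was checked.

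Jacalin-related lectins are carbohydrate-binding proteins built from jacalin domains. In Arabidopsis seedlings several of them, JAL22, JAL23, JAL33 and JAL34 among them, are found with the beta-glucosidase PYK10, which is stored in ER bodies, compartments derived from the endoplasmic reticulum. PYK10 and its lectins come together in large complexes when cells are broken. The bHLH transcription factor NAI1 is needed for ER bodies to form in seedlings, and NAI2 is a component of the ER body. Other proteins of the family bind myrosinase, the enzyme that breaks down glucosinolates, and some family genes respond to jasmonate.

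The values were MAS5 signals, a brightness per probe set on a linear scale on which each array had a trimmed mean of 100. Median signals were 48.2 to 52.1 over the 4 arrays. The background level of an array, the highest of 27 bacterial control probe sets, was 25.4 on add3 replicate 1 and 12.3 on add3 replicate 2. In wild type it was 20.5 on replicate 1 and 13.0 on replicate 2. Differences are given as add3 minus wild type in log2(signal + 12.5), which understates the change of dim genes. Signals of different probe sets are not comparable with each other, so only differences are set side by side between genes.

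The 6 lectin genes fell into 3 with large differences and 3 with small ones. JAL23, AT1G52000 and AT1G33790 had log2 differences of -1.64, -1.87 and -1.72. JAL33, JAL34 and AT1G52100 had log2 differences of -0.18, -0.16 and -0.26. The median of the 6 was -0.95, against -0.05 over the 13648 probe sets tested. The 2 add3 signals lay below both wild-type signals for 5 of the 6 genes, a pattern that 32.3% of all tested probe sets also showed. In an extract of whole shoots, fewer cells of a type and less RNA per cell cannot be told apart.

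**Figure D1:**
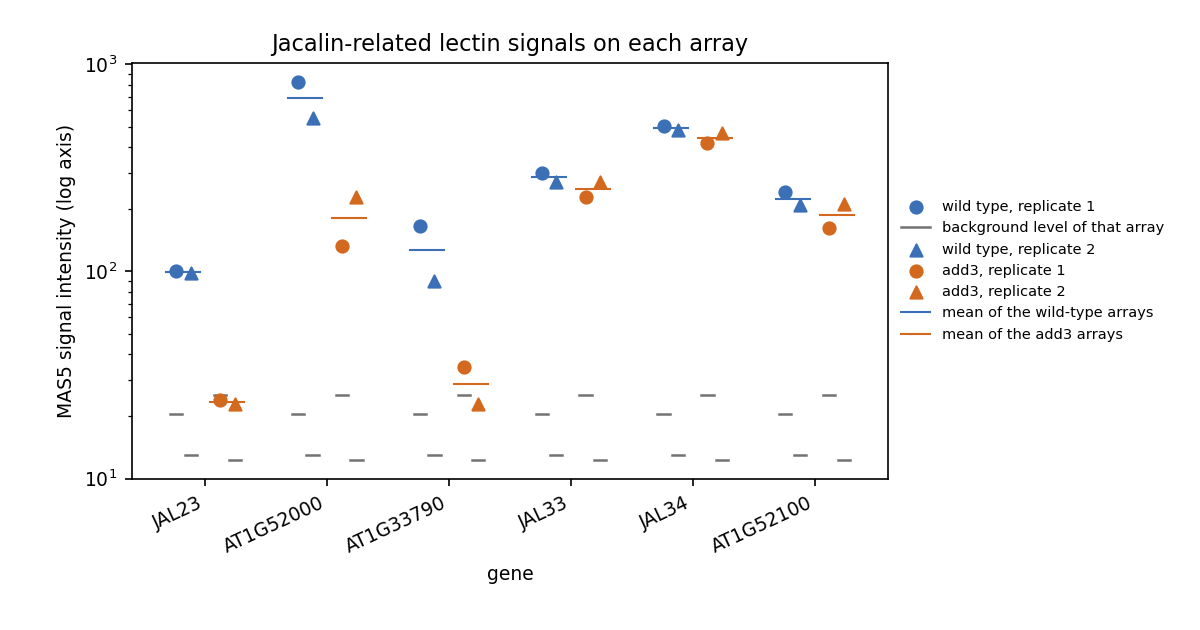
MAS5 signal intensity (log axis) of the 6 lectin genes on each of the 4 arrays, with short coloured lines for the group means (n = 2 each) and grey dashes for each array's background level. JAL23 had add3 signals of 23.96 and 22.83 against 100.5 and 98.86 in wild type, while the signals of JAL33, JAL34 and AT1G52100 lay close together in both groups.

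JAL23, a lectin of the PYK10 complex, had signals of 23.96 and 22.83 on the add3 arrays, against 100.5 and 98.86 on the wild-type arrays (replicate 1 first, here and below). The wild-type replicates nearly coincided and the groups lay far apart. On add3 replicate 1 the JAL23 signal was not above background, so that array gives only an upper limit on its level. The measured wild-type mean of 99.7 ± 1.15 (SD, n = 2) was 4.26 times the add3 mean of 23.4 ± 0.795. With add3 replicate 1 set at its background level, the lowest ratio of a wild-type to an add3 array was 3.9. The log2 gap between wild-type replicates was 0.02, where the median gap of all tested probe sets was 0.179. With a pseudocount as high as the median signal its log2 difference was -1.03, and with a pseudocount of 1 it was -2.05.

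AT1G52000 had signals of 133.3 and 229.7 in add3 and 823.5 and 552.6 in wild type. The groups did not overlap, although replicates differed by 0.73 in add3 and 0.56 in wild type on the log2 scale. Of the 13648 tested probe sets, 14 had a log2 difference as low as this gene's -1.87 or lower. The wild-type mean of 688 ± 192 was 3.79 times the add3 mean of 181.5 ± 68.2. The ratio ranged from 2.41 to 6.18 over the combinations of arrays.

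AT1G33790 had signals of 34.54 and 22.96 in add3 and 165.4 and 89.75 in wild type. Its wild-type replicates differed most among the 6 genes, by 0.80 on the log2 scale, yet the lower wild-type signal was still 2.6 times the higher add3 signal. The ratio of the means was 4.44, from 127.6 ± 53.5 and 28.75 ± 8.19. The log2 difference was -1.14 with a pseudocount as high as the median signal. All 4 signals were above the background of their array. JAL23 and AT1G33790 passed the filter on a mean signal of 33.2 only through their wild-type signals.

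JAL33, another lectin of the PYK10 complex, had signals of 228.4 and 270.5 in add3 and 297.8 and 271.1 in wild type. The second replicates of the groups were almost equal. Its log2 difference of -0.18 was smaller than the gap of 0.23 between its add3 replicates, and was -0.07 without add3 replicate 1 and -0.30 without add3 replicate 2.

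JAL34, the gene next to JAL33, had signals of 415.4 and 466.1 in add3 and 503.8 and 482.8 in wild type. The groups did not overlap, but the lower wild-type signal was only 1.04 times the higher add3 signal. Its log2 difference of -0.16 equalled the gap of 0.16 between the add3 replicates. The log2 difference was -0.08 without add3 replicate 1 and -0.24 without add3 replicate 2. After scaling the arrays to equal medians it was -0.06.

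AT1G52100 had signals of 161.6 and 212.7 in add3 and 241.2 and 208.8 in wild type. It was the gene whose groups overlapped, since add3 replicate 2 exceeded wild-type replicate 2. Its log2 difference of -0.26 lay within the add3 replicate gap of 0.37, and was -0.07 without add3 replicate 1 and -0.44 without add3 replicate 2. Without wild-type replicate 1 it was -0.16, and that of JAL33 was -0.12. Among all tested probe sets 24.3% had a log2 difference as low or lower. That share was 32.4% for JAL33 and 35.5% for JAL34, and 0.191%, 0.103% and 0.132% for JAL23, AT1G52000 and AT1G33790.

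The 4 arrays contributed unequally. Across the 6 genes, wild-type replicate 1 read higher than wild-type replicate 2 for 6 of 6, with a median log2 gap of 0.16, while the median over all tested probe sets was 0. Add3 replicate 1 read lower than add3 replicate 2 for 4 of 6. The contrast of add3 replicate 1 with wild-type replicate 1 thus gave the lowest median log2 difference of the 6 genes, -1.09, and that of add3 replicate 2 with wild-type replicate 2 gave -0.64. All 6 genes were below 0 in 3 of the 4 contrasts of 1 add3 with 1 wild-type array, and 5 of 6 in the contrast of the second replicates. The genes were chosen on add3 minus wild type, so these counts are no separate evidence. Medians over all tested probe sets in the 4 contrasts were -0.05 to -0.03. The shares of all tested probe sets with the patterns of this paragraph were not counted.

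Profiles over the 4 arrays, with each gene centred on its own mean in log2(signal + 12.5), describe the same values array by array and are no separate evidence for the grouping above. JAL33 and JAL34 had the closest profiles (Euclidean distance 0.0744), followed by JAL33 and AT1G52100 (0.132). JAL23 was nearest to AT1G33790 (0.612), and JAL34 and AT1G52000 were farthest apart (1.79). The 5 probe sets nearest to the mean profile of the 6 genes were those of psbF, AT3G28540, AT3G15720, AT3G26510 and AT2G03980, at distances of 0.0649 to 0.137. psbF, a plastid gene for a cytochrome b559 subunit, had signals of 2234 and 2541 in add3 and 4933 and 4226 in wild type. The 6 lectin genes lay at 0.715 to 0.999 from their own mean profile, so these 5 genes resemble an average that none of the lectins followed closely.

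Of 39 other loci listed as jacalin-related lectins, 15 had a probe set annotated to that locus alone. The other 24, including PBP1, JAL31, JR1 (JAL35), MBP1, MBP2 and the nitrile specifier genes NSP1 to NSP4, were not analysed here. Of the 15 genes, 8 were not above background on any array. Only JAL22 and AT1G19715 were bright enough for the test across all probe sets. Neither passed it, and neither had an unadjusted p under 0.05 (limma; 0 of 2 called, where 7.31% of all tested probe sets were called, with 4.17% higher and 3.14% lower in add3). After scaling the arrays to equal medians, the share of rises among all calls was 74.5%, against 57.1% with the scaling as deposited.

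JAL22, another lectin of the PYK10 complex, lies 2 gene models from JAL23. Its signals were 351.6 and 326.6 in add3 and 370.7 and 360.7 in wild type. The groups were adjacent without overlap. Its log2 difference was -0.11 (95% interval -0.39 to 0.18, limma adjusted p = 0.617). It was not tested against JAL23, since JAL23 was chosen on this contrast.

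AT1G19715 had signals of 159.5 and 143.4 in add3 and 130.3 and 100.4 in wild type, higher on both add3 arrays. Its log2 difference was 0.37 (95% interval -0.01 to 0.74, limma adjusted p = 0.197). Dimmer genes were left untested by the filter. AT1G52060, in the same run of lectin loci as AT1G52000 and AT1G52100, had signals of 13.08 and 10.05 in add3, not above background, and 21.39 and 21.52 in wild type. Its mean wild-type log2 signal was 1.21-fold above the mean of the background level on the add3 arrays. With the add3 arrays set at background, the lowest ratio of a wild-type to an add3 array was 0.844. No lower bound on a fall therefore holds over all arrays, and without add3 replicate 2 none could be given. The dim genes AT2G25980 and AT1G52050 had log2 differences of -0.08 and -0.09 with overlapping groups. AT1G73040 had wild-type signals of 10.2 and 46.95, which enclosed its add3 signals of 30.49 and 27.5.

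**Figure D2:**
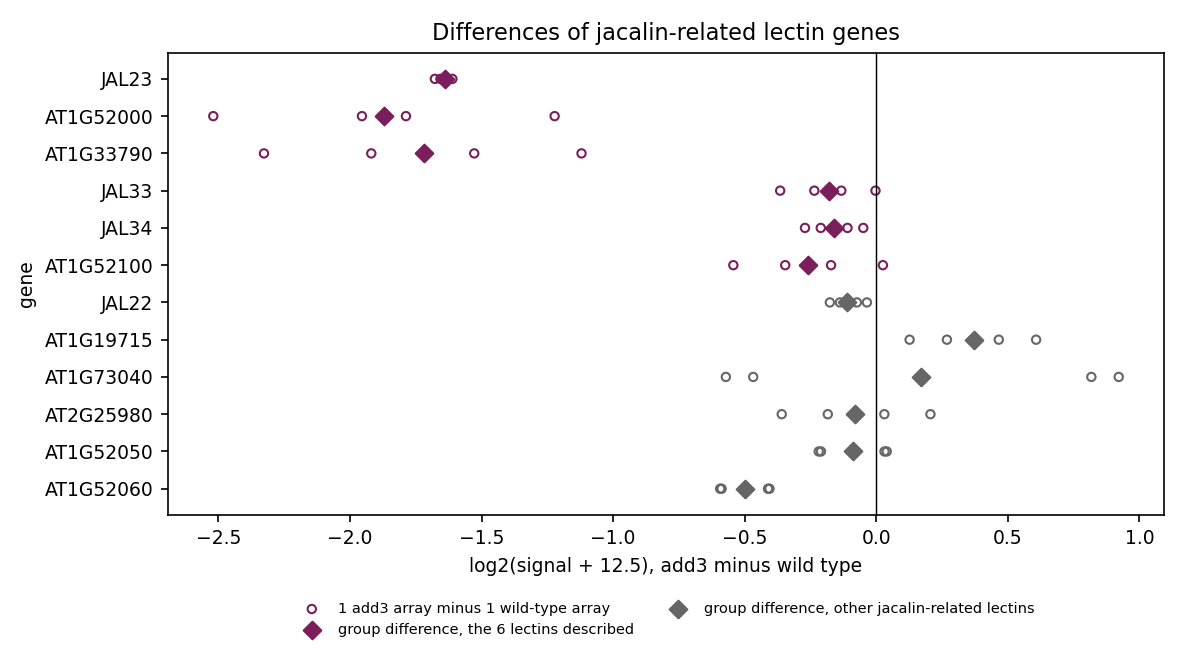
Difference in log2(signal + 12.5), add3 minus wild type, for the 6 lectin genes (purple) and the 6 brightest other jacalin-related lectins (grey). Diamonds are group differences and open circles are the 4 differences of 1 add3 array from 1 wild-type array. JAL23, AT1G52000 and AT1G33790 stand at -1.64, -1.87 and -1.72, and JAL22 at -0.11.

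Genes of the ER body and the PYK10 complex were covered for 4 of 14 listed loci. Of these 4, 2 fell and 2 did not pass the test, and their median log2 difference was -0.54. Over all tested probe sets 3.14% fell. The list was written with earlier results of these data known, so its count is a description. AT1G54020, 1 of the 2 that fell, passed the filter on mean signal only through its wild-type signals. NAI1, the transcription factor gene, had signals of 37.32 and 31.51 in add3 and 98.49 and 82.54 in wild type. The groups were well apart, and the log2 difference was -1.13 (SE 0.17, limma adjusted p = 0.0157). Leaving out wild-type replicate 1 (limma adjusted p = 0.0513) or the filter on dim probe sets (0.0662) ended the call.

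PYK10 itself was among the bright genes, with signals of 2511 and 2571 in add3 and 2034 and 2032 in wild type. Both add3 signals were higher. The log2 difference was 0.32 (95% interval 0.09 to 0.55, limma adjusted p = 0.0989), and the test was passed after scaling the arrays to equal medians (0.0413). NAI2 had signals of 377.6 and 436.5 in add3 and 417.6 and 363.5 in wild type, which overlapped (limma adjusted p = 0.822, log2 difference 0.06, 95% interval -0.26 to 0.38). The GDSL lipase gene AT1G54020 read 9.228 and 11.84 in add3, where neither signal exceeded background, and 126.9 and 53.74 in wild type. Its level was at least 4.67-fold lower in add3, as the mean wild-type log2 signal against the mean of the background level on the add3 arrays. That bound was 3.04-fold without wild-type replicate 1 and 7.18-fold without wild-type replicate 2. With the add3 arrays set at background, the lowest ratio of a wild-type to an add3 array was 2.12. The gene was called in the main fit (limma adjusted p = 0.0196) and no longer called with no filter (limma adjusted p = 0.0831). With the scaling as deposited, NAI1 thus passed the test as lower in add3, and PYK10, NAI2 and the lectin gene JAL22 did not pass it. These genes were not tested against each other.

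Of 29 jasmonate pathway loci 5 had a probe set of their own in the annotation used, and 4 were tested. Of these, 3 fell and 1 was not called, and their median log2 difference was -1.62, where 3.14% of all tested probe sets fell. The list was written with earlier results of these data known, so its count is a description and no test of the list. AT2G43530 had signals of 265.9 and 351.2 in add3 and 932.2 and 681.7 in wild type, without overlap (log2 difference -1.35, SE 0.19, limma adjusted p = 0.0142). The oxygenase genes AT2G38240 and AT5G05600, which jasmonate induces, had log2 differences of -2.85 and -1.89 (limma adjusted p = 0.00933 and 0.045). AT2G38240 read 37.81 and 32.11 in add3 and 482.4 and 223.8 in wild type. AT5G05600 read 63.58 and 201.9 in add3 and 548.4 and 388.1 in wild type. Its add3 replicates thus differed by 1.49 on the log2 scale. AT5G05600 did not pass the test when either wild-type array was left out (limma adjusted p = 0.154 for replicate 1 and 0.0783 for replicate 2), with a pseudocount of 1 (0.0503) or without the intensity trend in the variance (0.0683). With no filter none of the 3 was called. JRG21, a further oxygenase gene of this group, had signals of 12.99 and 33.55 in add3 and 74.21 and 39.56 in wild type, and did not pass the test (log2 difference -0.97, SE 0.35, limma adjusted p = 0.135). JRG21 passed the filter on mean signal only through its wild-type signals. It passed the test only without add3 replicate 2, where add3 rests on replicate 1, whose signal was not above background.

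**Figure D3:**
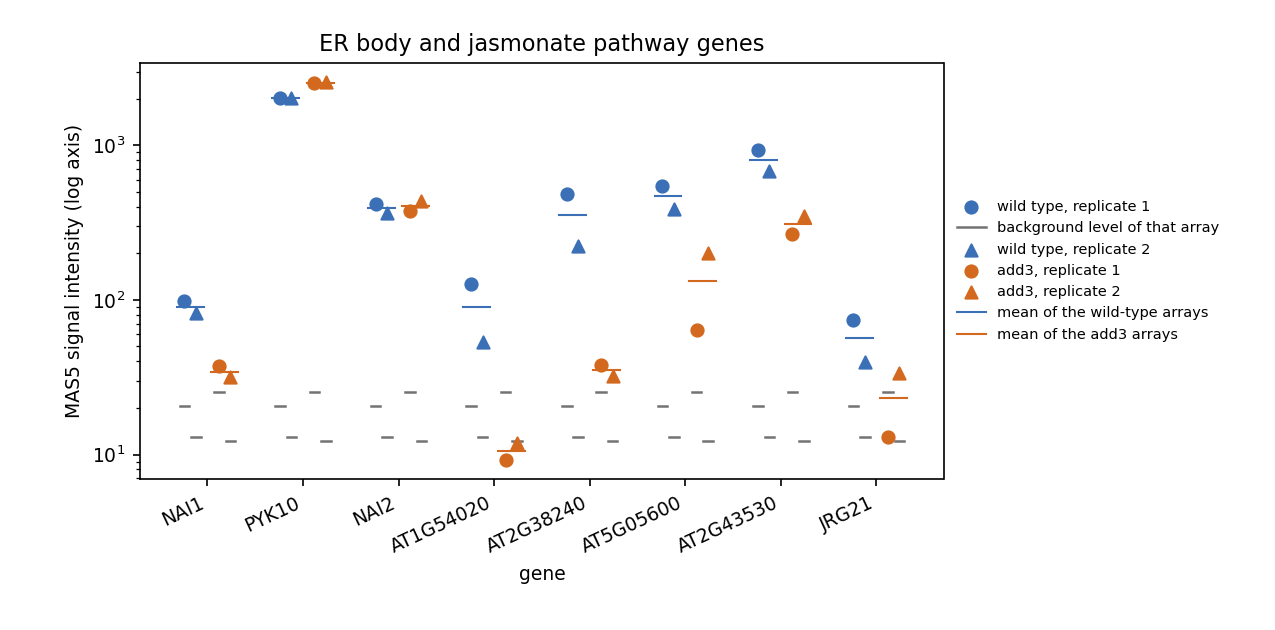
MAS5 signal intensity (log axis) on each array of 4 genes of the ER body and PYK10 complex (left) and 4 jasmonate pathway genes (right), with group means (n = 2 each) as coloured lines and the background level of each array as grey dashes. NAI1 lay between 31.51 and 37.32 in add3 and between 82.54 and 98.49 in wild type. PYK10 lay between 2511 and 2571 in add3 and between 2032 and 2034 in wild type.

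Glucosinolate synthesis genes were covered for 3 of 23 loci, and none was called (2 of the 3 at an unadjusted p under 0.05 in limma, as were 26.3% of all tested probe sets; median log2 difference 0.35). AT2G31790 had signals of 189.6 and 213.6 in add3 and 134.8 and 150.7 in wild type (log2 difference 0.46, SE 0.14, limma adjusted p = 0.086). BCAT4, which encodes an aminotransferase of methionine chain elongation, had signals of 578.3 and 712.7 in add3 and 528.2 and 475 in wild type (log2 difference 0.35, SE 0.14, limma adjusted p = 0.171). Both were higher on each add3 array than on either wild-type array. None of the 15 listed loci for glucosinolate breakdown had a probe set annotated to it alone, so they were not analysed here.

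The 6 lectin genes lie in 4 stretches of the genome. JAL33 and JAL34 are adjacent, in a run with PBP1, JAL31, MLP-300B and JR1, and AT1G52000 and AT1G52100 lie in another run with MBP1 and MBP2. Of the 50 distinct neighbours, taken as 5 gene models on each side of each lectin gene, 21 had a probe set of their own and 8 were tested. Of the 8, 1 rose and 7 were not called, and their median log2 difference was 0.18. With the untested dim neighbours included, the median of the 21 was -0.05. Over all tested probe sets 4.17% rose.

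The neighbour that rose was AT1G33811, a GDSL lipase gene 3 gene models from AT1G33790. Its signals were 347.3 and 299.3 in add3 and 89.04 and 140.3 in wild type, the opposite direction to the lectin (log2 difference 1.43, SE 0.20, limma adjusted p = 0.0145). The call was lost with no filter (limma adjusted p = 0.0622). AT1G51980, 2 gene models from AT1G52000, had signals of 402 and 388.4 in add3 and 269.1 and 306 in wild type, and passed only after scaling the arrays to equal medians (limma adjusted p = 0.0436, and 0.0789 as deposited). AT1G33810, 2 gene models from AT1G33790, had signals of 668.5 and 616.4 in add3 and 483 and 477.7 in wild type. It too passed only after that scaling (limma adjusted p = 0.0392, and 0.0783 as deposited).

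**Figure D4:**
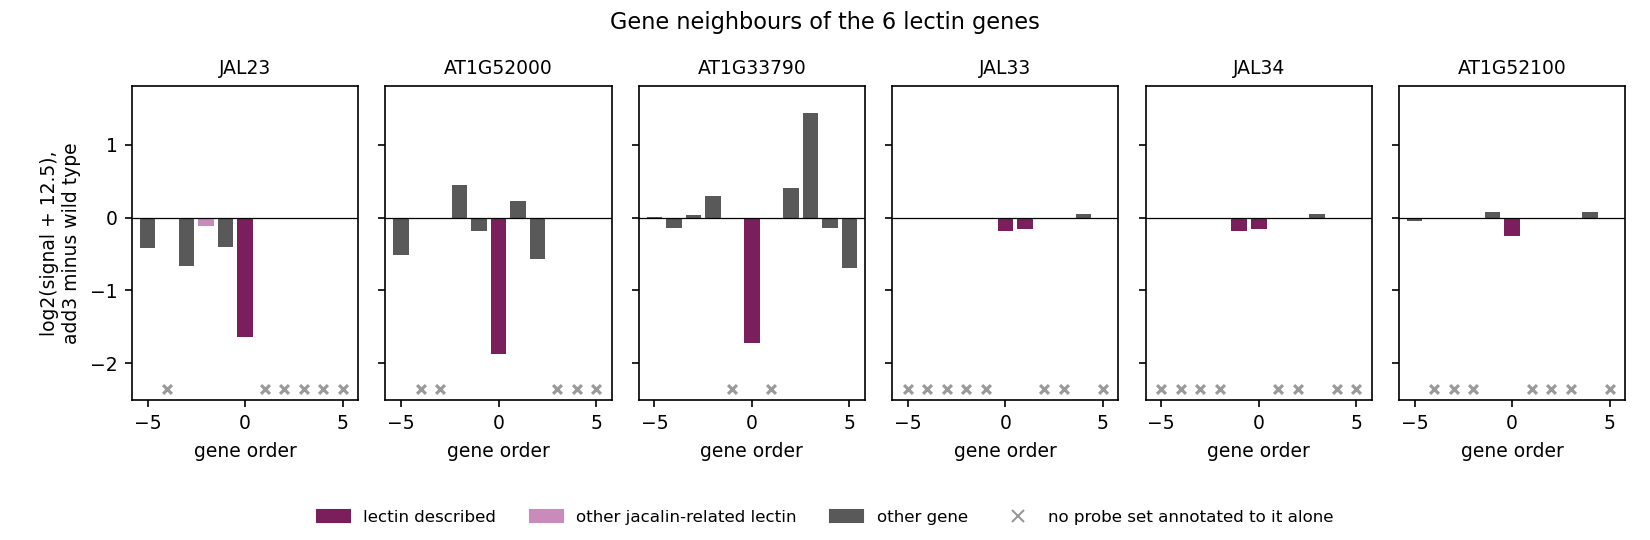
Difference in log2(signal + 12.5), add3 minus wild type, for each lectin gene (order 0) and the 5 gene models on either side, by their order in the gene table. Crosses mark gene models with no probe set annotated to them alone. Bars include 13 neighbours too dim for the test, 7 of them not above background on any array. AT1G33811 stands at 1.43 beside AT1G33790 at -1.72, and JAL22 at -0.11 beside JAL23 at -1.64.

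The labelled tissue was checked against marker genes, few of which were covered. The leaf gene RCA, which encodes Rubisco activase, read 3068 to 3537 on the 4 arrays (1 of 12 leaf loci covered). Of 15 root loci 3 were covered, among them PYK10, which seedling shoots also express. PYK10 read 2511 and 2571 in add3 and 2034 and 2032 in wild type. Of the other 2, the root peroxidase gene AT5G17820 was not above background on any array, and the root hair expansin gene EXPA7 read 12.12 and 5.872 in add3, not above background, against 26.79 and 17.88 in wild type. The part of root tissue in the lectin differences was not tested. The meristem gene CLV3 was above background on wild-type replicate 1 alone (21.69), as the single one of 4 meristem loci covered, and no seed locus was covered.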

How the data were processed

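The authors deposited 1 signal intensity per probe set and array, and the submitters' processing notes name MAS5 as the tool. No MAS5 version or detection call is given in the sources used here. Sample titles gave the groups and replicate numbers. Of 22810 rows, 64 controls were left out. In the platform annotation 13513 probe sets had 1 gene, 503 had several and 8730 had none. Of the first, 13436 had an entry in the gene table of TAIR10.1, from which names and gene order were taken. A locus called covered is thus covered in this annotation. Probe sets without an annotated gene may measure some of the loci described as not covered.

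The pseudocount of 12.5 was 0.25 of the median signal (50.1). The test took the 13648 probe sets whose mean signal reached the 40th percentile (33.2). It was a two-sided limma fit (version 3.58.1, R 4.3.3) with eBayes variances that followed intensity and 2 residual degrees of freedom. The p-values were adjusted by Benjamini-Hochberg, with calls at 0.05. The number of arrays limits the precision. Where neither array of a group exceeded background, a ratio to the background level replaces the fold change. Of several probe sets of a locus, the brightest was used.

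The lectin genes and all lists were chosen with earlier results of these data known. The lists were written from general knowledge, since the gene table gives no protein descriptions. All 6 lectins are named, with called and the 6 brightest other lectins, up to 4 called members of each other list (or the 2 of lowest p in a list without calls), up to 6 called neighbours, and the 5 genes nearest in profile. NAI2, PYK10, JRG21, AT1G51980, AT1G33810 and the marker genes fall outside this rule and were named after their values were seen. Alternatives were other pseudocounts, filters, scalings, a variance model, a replicate block and leaving out each array. Probe sequences were not used, so cross-hybridisation between related lectins was not examined, and no sequences are shown.

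The labels do not state that replicate numbers mark a shared planting, so the main fit did not pair the samples by them. Computed as a check, same-numbered arrays of the groups deviated from their group means with a correlation of -0.12 over tested probe sets.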

Additional observations from a re-analysis of the deposited data

How the results depend on the processing

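The filter, the variance model and the replicate block cannot change a lectin's log2 difference. In the other 48 combinations of gene and alternative the 6 lectin genes kept their sign, between -2.24 and -0.06. For the 5 genes whose groups did not overlap, another pseudocount or leaving out 1 array cannot change the sign. The genes were also chosen on this contrast, so the kept sign is a description and no separate evidence. Of 24 combinations with another pseudocount or scaling, 6 moved by more than the SD between replicates, 4 of them for JAL23, 1 for AT1G33790 and 1 for JAL34. Leaving out 1 of 2 arrays cannot exceed that SD by construction.

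The counts over all probe sets, 569 rises and 428 falls, depended on the filter and the arrays. With no filter (22746 probe sets) 5 rose and 8 fell in limma, and 0 genes of the ER body, jasmonate and neighbour lists were called. In that fit 4143 had an unadjusted p under 0.05. Without the intensity trend 308 rose and 247 fell, and the jasmonate count was 2, as with a pseudocount of 1. Scaling to the same median gave 937 rises and 3 called neighbours, all higher in add3. With the filter at the 60th percentile 0 ER body genes were called, since NAI1 and AT1G54020 were no longer tested. Leaving out 1 array gave 232 to 506 rises and 205 to 311 falls, with the lowest count of rises without add3 replicate 1 (232), then 248 without add3 replicate 2 and 359 without wild-type replicate 1. The ER body count was 1 to 2 in these fits, and 1 without wild-type replicate 1. The jasmonate count was 2 to 4, with 4 without add3 replicate 2, and the neighbour count was 1. No other jacalin-related lectin or glucosinolate synthesis gene was called under any alternative.

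With the replicate block 501 rose and 377 fell, and the lists' counts were 2 for the ER body, 3 for jasmonate and 1 for the neighbours. The crossed replicate block, chosen after seeing the data, gave 1050 rises and 859 falls. With 2 arrays a group, an exact permutation test of a single gene cannot reach 0.05. JAL23 in add3 and most of the 15 other jacalin-related lectin genes measured lay near or below background, which limits what their values can show.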
